A study of Mus musculus with 14 samples.

Results

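The DNA replication and nucleotide synthesis genes described here are 41 of the 24463 genes measured in each library. They were listed by name from the machinery of DNA copying: 10 genes of origin licensing and the helicase core, 6 of helicase activation, 6 of the sliding clamp and its loader, 8 of the polymerases and primase, 2 of Okazaki fragment processing, 3 of the single-strand binding complex RPA, 5 of deoxynucleotide synthesis, and Slbp, the histone mRNA binding protein. All 41 were found in every file, and all 41 passed the minimum level of 1 FPKM (fragments scaled to gene length and library depth) in every comparison.

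The cells were mouse leukemic stem cells (LSCs) of a chronic myeloid leukemia model. Lineage-negative bone marrow cells were grown for 48 h with serum, stem cell factor and thrombopoietin, received a retrovirus carrying p210 BCR-ABL in 2 rounds set 24 h apart, and were sorted as Lin-, c-Kit+, Sca1+, GFP+ cells. Every group therefore carried BCR-ABL. Untreated LSCs came from control marrow (WT, n = 3) or from Tcf1/Lef1-deficient marrow (dKO, n = 3), which lacks a pair of DNA-binding partners of beta-catenin. LSCs from control marrow were held for 6 h with DMSO as vehicle (n = 3) or with a prostaglandin at 20 µM, either prostaglandin E1 (PGE1; n = 3) or prostaglandin E2 (PGE2; n = 2). Ages of the mice and the alleles behind the deficiency are not given in the labels. Nor do they say that replicates are separate animals or cultures, so each p-value rests on a spread between libraries that may be technical.

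Before a cell copies its DNA, the origin recognition complex (Orc proteins) works with Cdc6 and Cdt1 to load the ring of Mcm2 to Mcm7 onto origins, and Cdc45 and the GINS proteins then turn that ring into the moving helicase. Polymerase alpha with primase starts each strand, polymerases delta and epsilon extend it on the clamp Pcna, the Rfc proteins load the clamp, RPA covers the bare single strand, and Fen1 and Lig1 join the lagging-strand pieces. Ribonucleotide reductase (Rrm1 with Rrm2), Tk1, Tyms and Dut supply deoxynucleotides, and transcription of many of these genes by E2F factors rises as cells leave G1 and enter S phase.

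Since many of these genes are textbook E2F targets, their promoters were searched for 4 E2F-type octamers, TTTCCCGC, TTTGGCGC, TTTCGCGC and TTTGCCGC, on both strands. The windows were the RefSeq windows of build GRCm38.p6, from 250 bases before to 50 bases after each start, matched by symbol. An octamer was present in 2.26% of 32851 windows of all genes and in 4.13% of 10618 windows of genes that averaged 1 FPKM or more. It was present in 13 of 39 windows of the replication genes (33.3%), or 13 of the 34 genes that matched: Mcm3, Mcm5, Mcm6, Mcm7, Cdc6, Cdt1, Orc1, Gins3, Rfc3, Pola1, Pold1, Pole2 and Lig1. Mcm4, Gins1, Gins2, Gins4, Rfc2, Prim2 and Pole had no entry. The shorter motif CCAAT, counted on both strands and able to share an end letter with an octamer, was in 37.4% of all windows, 37.7% of those of expressed genes and 59.0% of those of the replication genes. The stretches below, all upstream of the start, are shown because 4 of these genes were lower after PGE1 and the last, Mcm5, was not. Among the 13, Mcm7, Cdt1, Gins3, Rfc3 and Pole2 were not called after PGE1 either, and Lig1 was higher. Capitals mark the octamers. In Mcm6 and Mcm5 a pair of octamers on opposite strands overlaps. Mcm6 has 3 octamers upstream of its start, of which the stretch holds this pair.
Cdc6 (GRCm38.p6 chr11:98907968-98908065, plus strand): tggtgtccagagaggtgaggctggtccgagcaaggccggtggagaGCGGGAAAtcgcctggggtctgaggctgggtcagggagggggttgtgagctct
Orc1 (GRCm38.p6 chr4:108579382-108579453, plus strand): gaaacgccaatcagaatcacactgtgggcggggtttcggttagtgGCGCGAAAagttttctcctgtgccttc
Mcm6 (GRCm38.p6 chr1:128359759-128359860, minus strand): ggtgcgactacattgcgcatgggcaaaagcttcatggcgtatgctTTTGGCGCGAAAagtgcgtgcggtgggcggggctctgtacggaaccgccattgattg
Pola1 (GRCm38.p6 chrX:93632241-93632338, minus strand): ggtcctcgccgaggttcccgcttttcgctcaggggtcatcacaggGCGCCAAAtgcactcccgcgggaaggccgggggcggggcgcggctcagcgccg
Mcm5 (GRCm38.p6 chr8:75109311-75109412, plus strand): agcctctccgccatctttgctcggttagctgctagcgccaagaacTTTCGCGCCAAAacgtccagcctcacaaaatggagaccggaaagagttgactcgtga

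Reads in genes numbered 19.0 to 20.6 M per untreated library and 11.3 to 13.4 M per treated library. A replication gene had between 149 reads (Orc1, counting error 8.19%) and 12954 reads (Mcm6, 0.879%) in a library, with a median of 1455. Tcf7, which encodes Tcf1, stood at 1.15 to 1.48 FPKM in WT and 0.0219 to 0.142 in dKO, and Lef1 at 0.223 to 0.319 and 0.105 to 0.184. After PGE1 Tcf7 stood at 5.21 to 7.40 FPKM, against 0.850 to 1.53 after DMSO and 0.702 to 0.989 after PGE2. The part of this Tcf7 difference in the results was not tested. The genotype field of dKO replicate 1 and of DMSO replicate 1 contradicts the title, and Tcf7 in both went with the title. The Y-linked gene Ddx3y was listed at 0 in the 3 dKO libraries and stood at 7.72 to 8.94 FPKM in WT, so sex composition differed between the genotypes. The sort markers Kit and Ly6a (Sca1) were present in every group, but both were lower in dKO: Kit at 20.8 to 25.8 FPKM against 27.4 to 28.6 in WT, and Ly6a at 2.86 to 3.53 against 10.4 to 12.6. Kit was called higher after PGE1 (42.2 ± 6.55 FPKM) than after DMSO (26.1 ± 2.50), with a log2 difference of 0.67, and Ly6a higher after DMSO (14.9 ± 2.60) than in WT (11.3 ± 1.20), with one of 0.36. The part of these marker shifts in the results was not tested.

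Summed over each library, the FPKM of the replication genes was 1640 to 1666 in WT, 1837 to 1883 in dKO, 1138 to 1255 after DMSO, 1005 to 1054 after PGE1 and 1376 to 1377 after PGE2, and no pair of groups overlapped. Within DMSO, replicate 1 stood apart, with 36 of the 41 genes above the group mean and a median of 0.10 on the log2(FPKM + 1) scale above it. Without that library the DMSO sums were 1138 and 1142. In bulk RNA, fewer cells in S phase and less of these transcripts per cell cannot be told apart.

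**Figure D1:**
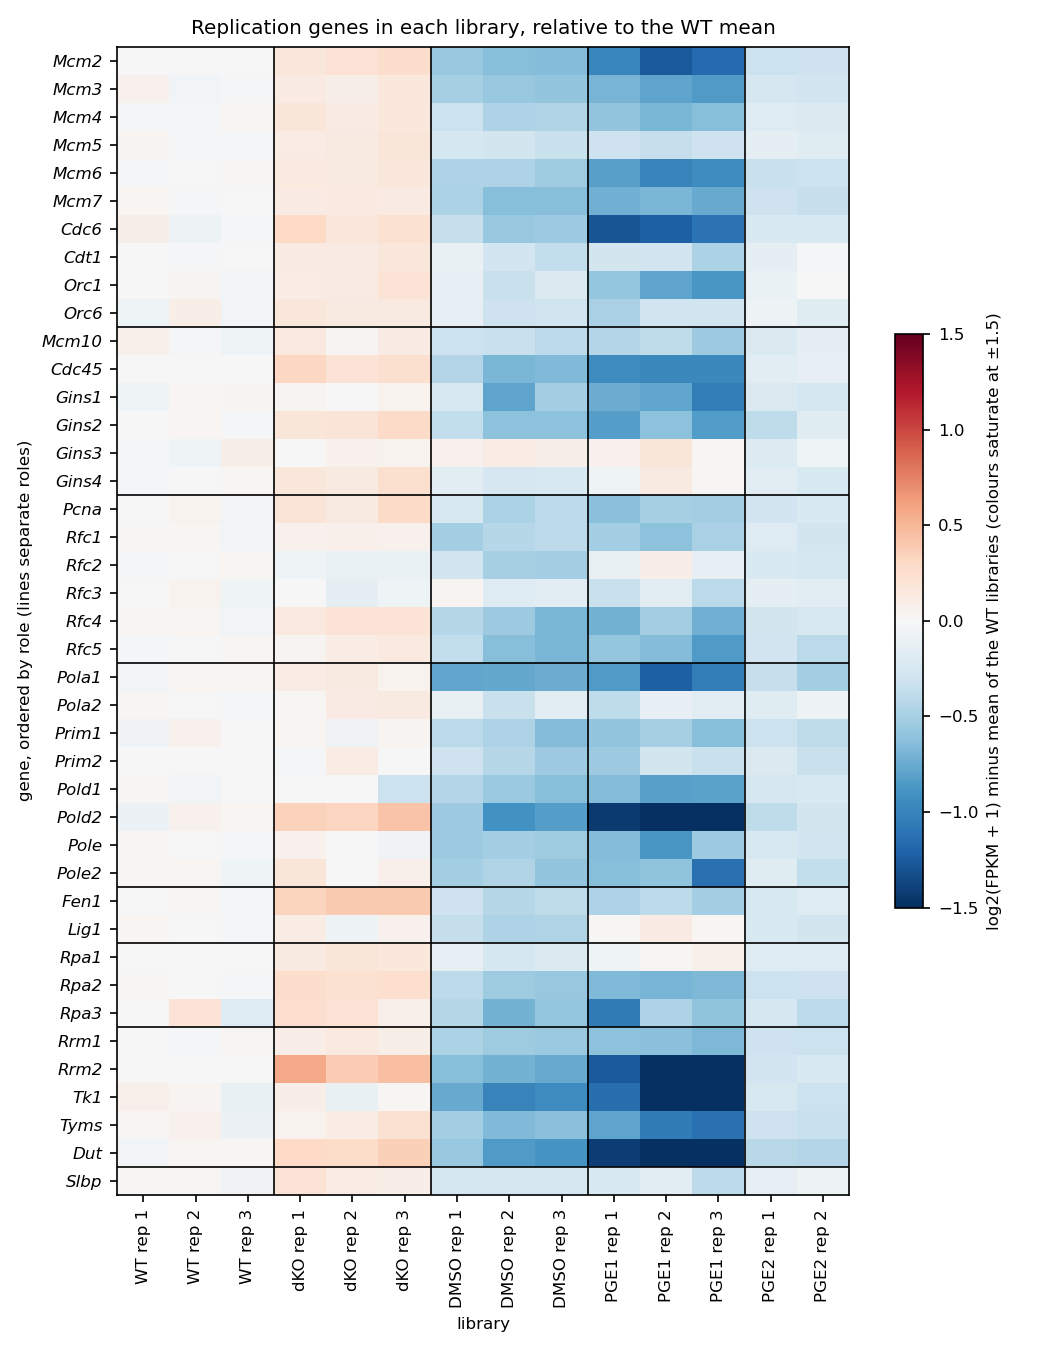
Each row is 1 of the 41 genes and each column 1 of the 14 libraries; colour gives log2(FPKM + 1) minus the mean of the 3 WT libraries, and lines separate roles and groups. The dKO columns are mostly above the WT level, and the DMSO, PGE1 and PGE2 columns below it, with library medians of -0.37 to -0.54 after DMSO, -0.62 to -0.67 after PGE1 and -0.24 to -0.26 after PGE2.

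The dKO libraries differed from WT by small, one-sided amounts. Sex composition also differed between these groups, so its part and that of the loss of Tcf1 and Lef1 cannot be told apart. With limma on log2(FPKM + 1), 22 of the 41 genes were higher in dKO than in WT and 0 were lower at an adjusted p below 0.05, whereas 40.9% of all 10721 genes tested were called, 18% higher and 22.9% lower. At an unadjusted p below 0.05, 25 were higher and 1 was lower. The median difference of the 41 was 0.14, against -0.01 for all genes, and 38 of the 41 were positive. The WT and dKO libraries did not overlap for 27 of them, 26 higher and 1 lower, beside 54.9% of all genes. The calls leaned on scaling and on single libraries: 14 genes were called higher, and Rfc2 lower, after quantile normalization, and 13 were called higher without WT replicate 3. With median-of-ratios scaling 27 were called, among them all 22. Among all genes, the share of calls that were higher was 44.1% as fitted, 60.2% with quantile normalization and 56.2% when libraries were scaled by median of ratios.

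After PGE1 the genes split. Against DMSO, 15 of the 41 were lower and 4 (Lig1, Rfc2, Gins4 and Rpa1) were higher, beside 49.1% of all 11242 genes called, 25.5% lower and 23.6% higher. The median of the 41 was -0.16, against 0.01 for all genes. Libraries did not overlap for 25 of them, 21 lower and 4 higher, beside 57.2% of all genes. The lower calls of Mcm2, Mcm4, Mcm6, Cdc6, Cdc45, Pold2, Rrm2, Tk1, Tyms and Dut and the higher calls of Lig1 and Rfc2 held in every alternative run, and Orc1 did in all of those in which it was tested. Pola1 and Pold1 were lost without DMSO replicate 1 or 2, PGE1 replicate 2 or 3 or either PGE2 library (Pola1 also without DMSO replicate 3 or with no minimum level, Pold1 also with quantile normalization). Rpa2 was lost without DMSO replicate 1 or 2, PGE1 replicate 1 or 3 or either PGE2 library or with the replicate block, and Mcm3 without DMSO replicate 1 or with quantile normalization. Gins4 was lost without DMSO replicate 2, and Rpa1 without DMSO replicate 2 or 3 or PGE1 replicate 3.

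After PGE2, 39 of the 41 differences from DMSO were positive, with a median of 0.21 against 0.00 for all genes, but only Cdc45 and Tk1 passed the test, both higher, and 0 were lower. At an unadjusted p below 0.05, 22 were higher and 1 lower. Of all genes, 5.57% were called, 0.996% higher and 4.57% lower. The libraries did not overlap for 30 of the 41, 29 higher and 1 lower, beside 49.1% of all genes. Both calls were lost without DMSO replicate 2 or 3 or either PGE2 library, and Tk1 also without DMSO replicate 1, whereas 9 genes were called without PGE1 replicate 2. PGE1 and PGE2 share the DMSO libraries, so the 2 agents were also compared directly at the same dose and time: 28 of the 41 genes were lower after PGE1 than after PGE2 and 3 (Lig1, Gins4 and Rpa1) were higher, beside 53.9% of all genes called, 26.7% lower and 27.2% higher. Leaving out either PGE2 library left 21 of the 41 called. The 10 genes not called between the agents are not shown to respond alike: the 95% interval of the difference, PGE1 minus PGE2 on the log2 scale, ran from -0.32 to 0.14 for Pola2, -0.34 to 0.12 for Prim2 and -0.38 to 0.07 for Rfc3. PGE2 differs from PGE1 by an additional double bond in the carboxyl side chain.

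**Figure D2:**
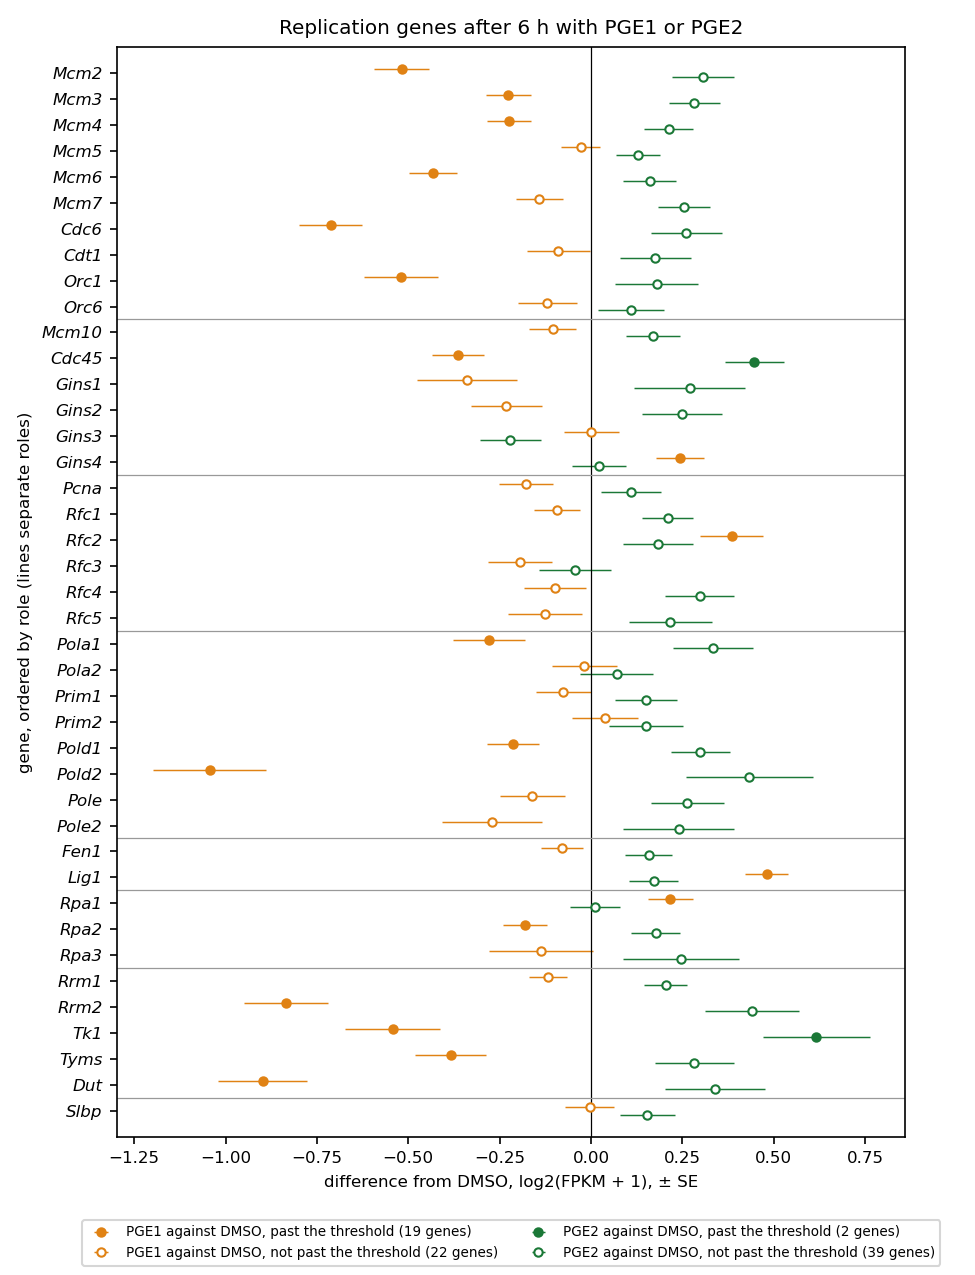
Each row is a gene with its difference from DMSO (± SE, log2(FPKM + 1)) after PGE1 (orange) and PGE2 (green), filled where the adjusted p was below 0.05. The PGE1 points reach -1.04 (Pold2) and 0.48 (Lig1), whereas 39 of the 41 PGE2 points lie to the right of 0 and 2 are filled.

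Among the origin licensing genes, 9 of 10 were called higher in dKO, beside 18% of all genes. After PGE1 6 of 10 were lower, beside 25.5% of all genes. Cdc6, which brings the Mcm ring to the origin, changed the most after PGE1. It stood at 9.87, 8.77 and 9.17 FPKM in WT and 11.6, 10.6 and 11.0 in dKO. It stood at 7.05, 5.90 and 6.03 FPKM after DMSO, 3.23, 3.39 and 3.78 after PGE1, and 7.73 and 7.78 after PGE2. The PGE1 libraries lay below every other library. Cdc6 was 1.19-fold higher in dKO (log2 difference 0.23 ± 0.06 SE, limma adjusted p = 0.0145; lost without WT replicate 2 or 3) and 1.82-fold lower after PGE1 than after DMSO (-0.71 ± 0.09, adjusted p = 2.2e-04). Its difference after PGE2 was 0.26 ± 0.10 and did not pass (adjusted p = 0.17).

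Orc1, the largest subunit of the origin recognition complex, was the lowest of the 41 genes in WT. It stood at 5.12, 5.35 and 4.997 FPKM in WT and 5.65, 5.69 and 6.11 in dKO, at 4.63, 3.89 and 4.28 after DMSO, and at 4.73 and 5.20 after PGE2. After PGE1 it stood at 3.12, 2.57 and 2.35 FPKM, below all other libraries. It was 1.59-fold lower than after DMSO (log2 difference -0.52 ± 0.10 SE, limma adjusted p = 0.0029), and its difference in dKO was just short of the threshold (0.15 ± 0.05, adjusted p = 0.063). Orc6 was higher in dKO (20.7 ± 1.35 SD in WT, 23.1 ± 0.302 in dKO, n = 3 each), a call at adjusted p = 0.048 that was lost without WT replicate 1 or 3 or any dKO replicate. After PGE1 Orc6 stood at 15.9 ± 1.23 FPKM against 17.4 ± 1.38 after DMSO and was not called.

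The helicase subunits were unequal after PGE1. Mcm2 stood at 56.9, 54.4 and 54.1 FPKM after DMSO, 42.6, 35.0 and 37.3 after PGE1, and 68.1 and 68.7 after PGE2. Mcm6 stood at 84.7, 84.7 and 80.7 FPKM after DMSO, 66.2, 57.8 and 60.8 after PGE1, and 93.0 and 93.6 after PGE2. In both genes the 3 treated groups did not overlap, with PGE1 at the bottom and PGE2 at the top. Mcm2 was 1.44-fold and Mcm6 1.35-fold lower after PGE1 than after DMSO (limma adjusted p = 5.8e-04 and 7.1e-04), and Mcm3 and Mcm4 each 1.17-fold (adjusted p = 0.015 and 0.014). Mcm5, in the same ring, stood at 71.8, 71.3 and 68.5 FPKM after DMSO and 69.8, 68.0 and 69.8 after PGE1, a difference of -0.03 ± 0.05 SE (adjusted p = 0.69, 95% interval -0.15 to 0.09). Mcm7 differed by -0.14 ± 0.06 and was not called (adjusted p = 0.096). After PGE2 none of the 10 licensing genes passed (5 were higher at an unadjusted p below 0.05), and Mcm3 came nearest (90.2 ± 1.99 against 74.0 ± 2.72 FPKM, adjusted p = 0.053).

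In the untreated cells the 6 ring subunits were closer together. Mcm2 stood at 85.1, 85.8 and 84.7 FPKM in WT and 95.8, 98.8 and 103 in dKO, and Mcm6 at 115, 118 and 119 and at 130, 129 and 132. Each dKO library was above each WT library for both genes. Mcm2 was 1.16-fold higher (limma adjusted p = 0.0031) and the other 5 subunits 1.09-fold (Mcm3) to 1.12-fold (Mcm4). Mcm3 sat just inside the threshold (adjusted p = 0.049) and was lost when any dKO library or WT replicate 2 or 3 was left out; Mcm5 was lost without WT replicate 2 or 3 or dKO replicate 3, and Mcm7 without WT replicate 2 or 3. Cdt1, the licensing factor that works with Cdc6, was 1.10-fold higher in dKO (39.4 ± 0.345 against 43.4 ± 0.867 FPKM, adjusted p = 0.016), a call lost without any 1 of the WT libraries, and stood at 32.9 ± 3.11 after DMSO and 30.8 ± 2.42 after PGE1.

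Of the 6 helicase activation genes, Cdc45 was called in all 3 comparisons with a control. It stood at 38.9, 39.5 and 39.3 FPKM in WT and 49.0, 45.3 and 46.6 in dKO. It stood at 28.6, 24.1 and 24.5 FPKM after DMSO, 19.9, 19.6 and 19.6 after PGE1, and 34.7 and 36.0 after PGE2. No library of one treated group overlapped another. Cdc45 was 1.20-fold higher in dKO (limma adjusted p = 0.0021), 1.30-fold lower after PGE1 (adjusted p = 0.0030) and 1.37-fold higher after PGE2 (adjusted p = 0.015), the last with the limits given above.

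The 4 GINS subunits, which form 1 complex, were unequal after PGE1. Gins4 stood at 23.1, 21.8 and 22.2 FPKM after DMSO, 24.9, 28.7 and 26.5 after PGE1, and 23.3 and 22.1 after PGE2, and was 1.19-fold higher after PGE1 (limma adjusted p = 0.014). Gins1 stood at 20.2, 13.4 and 16.6 FPKM after DMSO and 13.97, 13.5 and 11.2 after PGE1; these overlapped and the difference of -0.34 ± 0.14 SE did not pass (adjusted p = 0.067). Gins2 differed by -0.23 ± 0.10 (adjusted p = 0.079). Gins3, next to Orc1 the lowest of the genes in WT, was at 5.86 ± 0.120 FPKM after DMSO and 5.87 ± 0.390 after PGE1, and was the only GINS gene not called lower after DMSO than in WT. In dKO, Gins2 (1.17-fold) and Gins4 (1.14-fold) were called higher (adjusted p = 0.0044 and 0.0089), and Gins1, Gins3 and Mcm10, a helicase activation factor, were not.

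Of the 6 clamp and clamp loader genes, 1 was called after PGE1, and it was higher. Of all genes, 23.6% were called higher and 25.5% lower, so this count does not set the role apart. Rfc2, a clamp loader subunit, stood at 53.5, 46.1 and 45.6 FPKM after DMSO, 60.5, 70.2 and 59.8 after PGE1, and 55.4 and 54.5 after PGE2. Every PGE1 library was above every other treated library, and the 1.31-fold difference passed the test (limma adjusted p = 0.0057). In WT it stood at 64.6, 64.9 and 66.7 FPKM and in dKO at 62.7, 61.1 and 60.7, without overlap and lower in dKO, at adjusted p = 0.073. The other loader subunits (Rfc1, Rfc3, Rfc4, Rfc5) differed by -0.19 to -0.09 on the log2 scale after PGE1 and were not called. Pcna, the clamp, stood at 70.5 ± 5.81 FPKM after DMSO and 62.2 ± 2.98 after PGE1 (adjusted p = 0.075), and was 1.15-fold higher in dKO (adjusted p = 0.0138; lost without WT replicate 1 or 3), as was Rfc4 (1.14-fold, adjusted p = 0.0089). RefSeq names pseudogenes of Pcna and Tyms, so the levels of both are uncertain.

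Pold2, the accessory subunit of polymerase delta, showed the largest difference of the 41 genes after PGE1. It stood at 49.3, 55.0 and 53.6 FPKM in WT and 67.2, 66.1 and 71.3 in dKO. It stood at 35.8, 27.6 and 29.2 FPKM after DMSO, 18.8, 12.5 and 12.5 after PGE1, and 40.1 and 43.4 after PGE2. The PGE1 libraries lay below all others. Pold2 was 1.30-fold higher in dKO (log2 difference 0.37 ± 0.05 SE, limma adjusted p = 0.0012) and 2.11-fold lower after PGE1 (-1.04 ± 0.16, adjusted p = 6.6e-04). The catalytic subunit Pold1 stood at 29.9, 27.5 and 25.9 FPKM after DMSO and 25.6, 22.8 and 23.1 after PGE1, 1.17-fold lower and just inside the threshold (adjusted p = 0.036). In dKO, Pold1 stood at 41.004, 40.5 and 32.3 FPKM against 41.7, 39.8 and 41.03 in WT, the third dKO library being low, and was not called (adjusted p = 0.33).

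Of the other polymerase genes, Pola1, the catalytic subunit of polymerase alpha, was called after PGE1. It stood at 8.20, 8.27 and 8.38 FPKM after DMSO, 7.71, 5.70 and 6.66 after PGE1, and 11.4 and 10.1 after PGE2. The 3 treated groups were again in the order PGE1, DMSO, PGE2 without overlap, and the PGE1 difference of -0.28 ± 0.10 SE sat just inside the threshold (limma adjusted p = 0.043), lost without any 1 of 7 libraries named above, or with no minimum level. Pole, Pole2, Pola2, Prim1 and Prim2 differed by -0.27 (Pole2) to 0.04 (Prim2) after PGE1, and none was called. In dKO no polymerase or primase gene other than Pold2 was called.

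Of the 2 Okazaki fragment genes, Lig1 was called after PGE1 and Fen1 in dKO. Lig1, which seals the nicks, stood at 30.4, 28.1 and 28.2 FPKM after DMSO, 39.6, 42.7 and 39.9 after PGE1, and 33.3 and 32.0 after PGE2. It was 1.41-fold higher after PGE1 (log2 difference 0.48 ± 0.06 SE, limma adjusted p = 2.4e-04), with no overlap, and stood at 39.1 ± 0.857 FPKM in WT and 40.0 ± 2.74 in dKO (adjusted p = 0.67). Fen1, the flap nuclease that acts before it, had the smallest adjusted p of the 41 genes in dKO: 60.4, 60.9 and 58.9 FPKM in WT against 76.2, 79.2 and 79.2 in dKO, 1.30-fold higher (0.38 ± 0.03, adjusted p = 1.5e-04). After PGE1 it stood at 43.6 ± 1.68 FPKM against 46.1 ± 1.77 after DMSO and was not called (adjusted p = 0.29).

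Of the 3 RPA subunits, 1 was called higher and 1 lower after PGE1, beside 23.6% and 25.5% of all genes. Rpa1 stood at 41.2, 37.5 and 38.6 FPKM after DMSO and 43.0, 46.1 and 47.6 after PGE1, 1.17-fold higher (limma adjusted p = 0.018). Rpa2 stood at 28.1, 25.6 and 24.9 FPKM after DMSO and 23.2, 22.6 and 22.9 after PGE1, 1.14-fold lower (adjusted p = 0.034). Neither overlapped, and each carries the limits given above. In dKO both were higher, Rpa2 1.20-fold (adjusted p = 9.9e-04) and Rpa1 1.12-fold (adjusted p = 0.0068). Rpa3, the smallest subunit, varied more between replicates (26.7 to 35.7 FPKM in WT) and was called in neither comparison.

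Deoxynucleotide synthesis genes had the largest median difference of any role after PGE1, -0.54, and 4 of 5 were called lower, beside 25.5% of all genes. Rrm2, the regulated subunit of ribonucleotide reductase, stood at 83.6, 82.9 and 83.5 FPKM in WT and 124, 109 and 115 in dKO. It stood at 53.3, 50.5 and 49.0 FPKM after DMSO, 34.1, 27.6 and 23.6 after PGE1, and 68.0 and 70.9 after PGE2. All 5 groups were apart. Rrm2 was 1.39-fold higher in dKO, the largest difference of the 41 genes there (log2 difference 0.47 ± 0.05 SE, limma adjusted p = 2.9e-04), and 1.79-fold lower after PGE1 (-0.83 ± 0.12, adjusted p = 4.4e-04). After PGE2 it was 1.36-fold the DMSO level and did not pass (adjusted p = 0.090). Its partner Rrm1 stood at 47.8 ± 1.32 FPKM after DMSO and 44.0 ± 0.910 after PGE1 (adjusted p = 0.093), and was 1.08-fold higher in dKO (adjusted p = 0.032; lost without WT replicate 1, 2 or 3 or dKO replicate 2).

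Dut, which removes dUTP and makes the precursor of thymidylate, stood at 63.7, 66.9 and 66.6 FPKM in WT and 81.1, 79.7 and 84.4 in dKO. It stood at 44.0, 36.1 and 35.2 FPKM after DMSO, 24.1, 19.2 and 17.4 after PGE1, and 49.1 and 48.1 after PGE2. It was 1.24-fold higher in dKO (limma adjusted p = 6.7e-04) and 1.90-fold lower after PGE1 (adjusted p = 4.0e-04). Tk1, thymidine kinase of the salvage pathway, stood at 15.4, 12.7 and 13.3 FPKM after DMSO, 11.6, 8.13 and 8.08 after PGE1, and 22.3 and 21.0 after PGE2. It was 1.49-fold lower after PGE1 (adjusted p = 0.0080) and 1.57-fold higher after PGE2 (adjusted p = 0.046), the PGE2 call resting on every DMSO and PGE2 library. In untreated cells Tk1 stood at 26.6 ± 1.86 FPKM in WT and 26.7 ± 2.04 in dKO (adjusted p = 0.99). Tyms, thymidylate synthase, was 1.37-fold lower after PGE1 (6.09 ± 0.374 against 4.45 ± 0.672 FPKM, adjusted p = 0.010).

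Slbp, which binds the stem-loop of replication-dependent histone mRNAs, stood at 23.4 ± 0.193 FPKM after DMSO and 23.4 ± 1.92 after PGE1. In dKO it was 1.11-fold higher (28.2 ± 0.913 against 31.2 ± 1.32, limma adjusted p = 0.036), a call lost without any 1 of the WT libraries or dKO replicate 2.

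**Figure D3:**
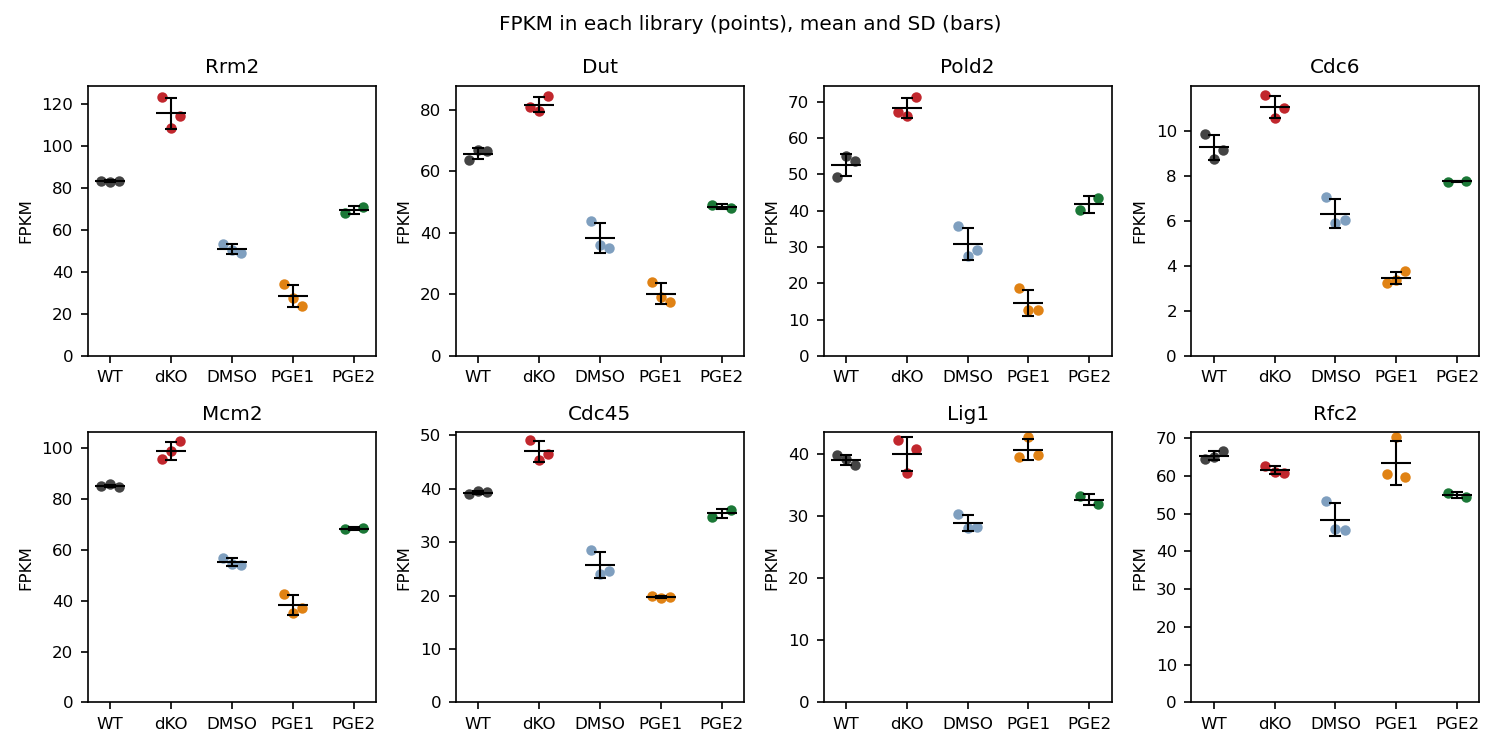
FPKM of 8 of the genes in each of the 14 libraries (points, by group), with the mean and SD as bars and axes from 0. Rrm2, Dut, Pold2, Cdc6, Mcm2 and Cdc45 are highest in dKO and lowest after PGE1, whereas Lig1 and Rfc2 are higher after PGE1 than after DMSO, with Lig1 at 39.6 to 42.7 FPKM against 28.1 to 30.4.

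The dKO and PGE1 comparisons share no library, so their calls can be set against each other. Of the 22 genes higher in dKO, 10 (45.5%) were lower after PGE1: Mcm2, Mcm3, Mcm4, Mcm6, Cdc6, Cdc45, Pold2, Rpa2, Rrm2 and Dut. These were 66.7% of the 15 lower after PGE1. Among all 10566 genes in both fits, 964 were higher in dKO and lower after PGE1, which is 50.9% of the 1893 higher in dKO and 35.1% of the 2743 lower after PGE1. Gins4 and Rpa1 were higher in both (9.09% of the 22, 50.0% of the 4 higher after PGE1), as were 166 of all genes (8.77% and 6.91%). The difference between the effects, PGE1 minus DMSO less dKO minus WT, was tested over all 14 libraries: 23 of the 41 genes were lower and 2 (Rfc2 and Lig1) were higher, beside 55.6% of all 11078 genes called, 25.5% lower and 30.2% higher. It was -1.41 ± 0.18 SE for Pold2, -1.30 ± 0.14 for Rrm2, -1.21 ± 0.14 for Dut and -0.94 ± 0.10 for Cdc6 (limma adjusted p of 2.9e-05 or less), and 0.47 ± 0.10 for Rfc2 and 0.45 ± 0.08 for Lig1 (adjusted p = 0.0012 and 3.8e-04). Without the libraries whose genotype field contradicts the title, an alternative chosen after seeing the data, 19 were lower and 2 were higher.

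**Figure D4:**
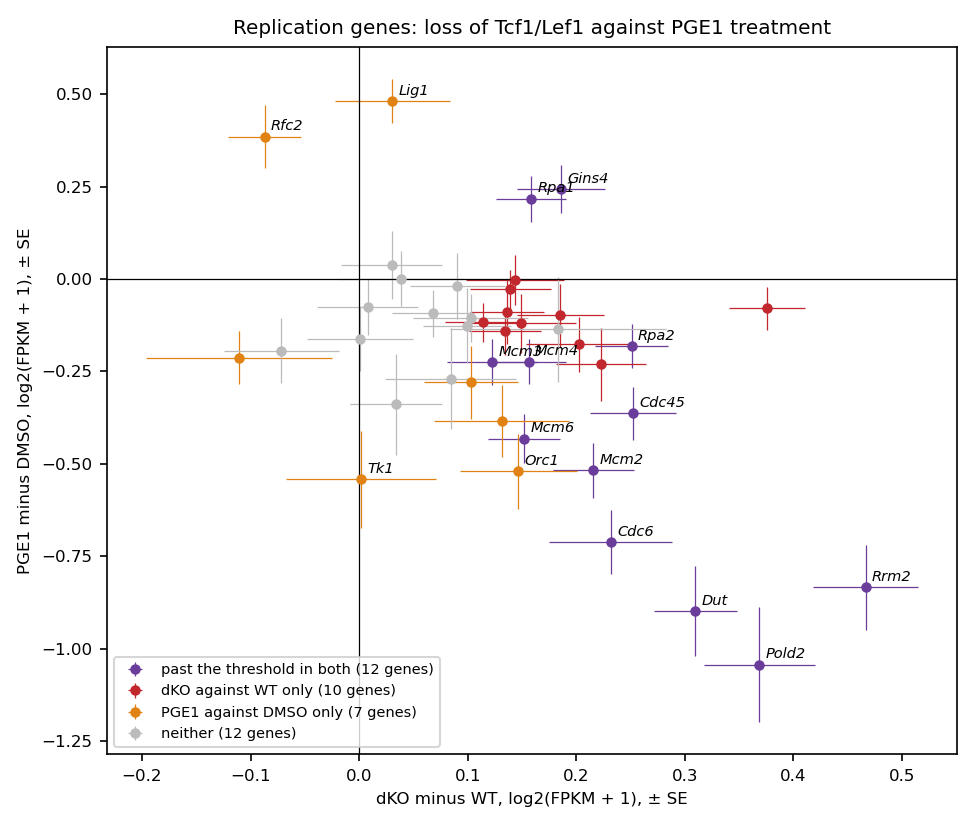
Each point is 1 of the 41 genes, with dKO minus WT on the x axis and PGE1 minus DMSO on the y axis (log2(FPKM + 1), bars ± SE), coloured by which comparison passed. Pold2 (0.37, -1.04), Rrm2 (0.47, -0.83) and Dut (0.31, -0.90) lie farthest into the lower right, and Gins4 (0.19, 0.24) and Rpa1 (0.16, 0.22) are called upward in both.

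Ratios of FPKM within each library were computed for 6 pairs of genes whose proteins work together. The pairs were chosen after their values were seen, so the ratios are a description. The 4 genes called higher after PGE1 (Lig1, Rfc2, Gins4 and Rpa1) are each the divisor of a pair. That the ratios fall together after PGE1 follows from this choice and is no further support. Pold2 over Pold1 was 1.29 ± 0.101 in WT, 1.83 ± 0.330 in dKO, 1.11 ± 0.0985 after DMSO, 0.609 ± 0.108 after PGE1 and 1.21 ± 0.0527 after PGE2 (SD). Rrm2 over Rrm1 was 1.21 ± 0.0181 in WT, 1.55 ± 0.120 in dKO, 1.07 ± 0.0171 after DMSO, 0.645 ± 0.109 after PGE1 and 1.26 ± 0.0419 after PGE2. For both pairs the dKO libraries lay above WT and the PGE1 libraries below DMSO without overlap. Rpa2 over Rpa1 (0.670 to 0.504), Gins2 over Gins4 (0.859 to 0.607), Rfc4 over Rfc2 (0.278 to 0.197) and Fen1 over Lig1 (1.60 to 1.07) were also lower after PGE1 than after DMSO in every library. Each of the 6 differences between PGE1 and DMSO had a two-sided exact permutation p = 0.1, the smallest that 3 against 3 libraries can give, so none can pass 0.05.

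**Figure D5:**
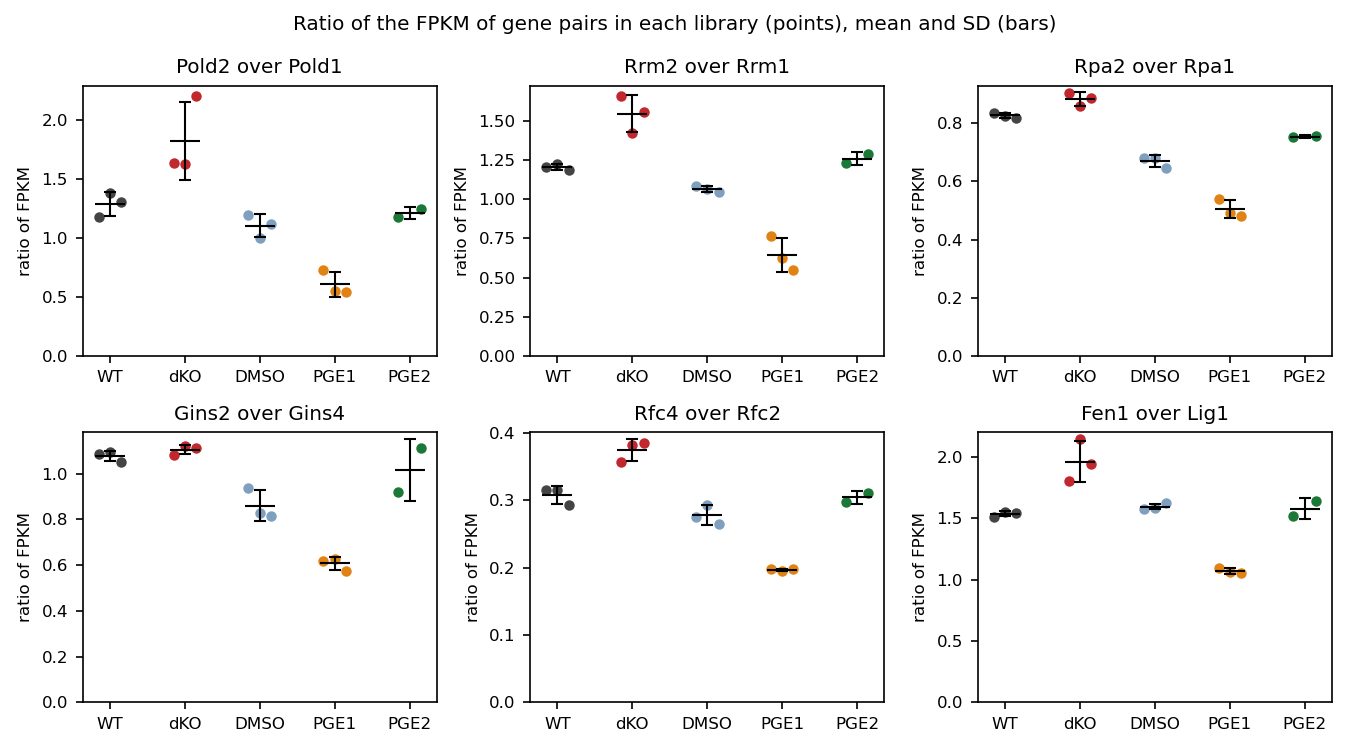
Ratio of the FPKM of 6 gene pairs in each library (points, by group), with the mean and SD as bars and axes from 0. The PGE1 libraries are the lowest in all 6 panels; the dKO libraries are above WT in all but Gins2 over Gins4, where 1.10 ± 0.0199 and 1.08 ± 0.0235 overlap.

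Genes with and without an E2F-type octamer were also summarised apart, as a description. For PGE1 against DMSO, the 13 genes with one had a median difference of -0.21, with 6 lower and 1 higher (Lig1). The 21 matched genes without one had a median of -0.13, with 8 lower and 1 higher. Of all genes tested, 25.5% were lower and 23.6% higher. Cdc6, Orc1, Mcm6 and Pola1, with stretches shown above, were lower, and Mcm5 was not. The octamers and their number are not the same in all of these genes. Of the others with one, Mcm3 and Pold1 were lower, and Mcm7, Cdt1, Gins3, Rfc3 and Pole2 were not called. In dKO the medians were 0.12 and 0.16, with 6 of 13 and 13 of 21 called higher, beside 18% of all genes.

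Control cells themselves differed between the untreated and vehicle sets. After DMSO 39 of the 41 genes were lower than in WT and 0 were higher (also 0 at an unadjusted p below 0.05), beside 56.6% of all 11115 genes called, 30.7% lower and 26% higher, with a median of -0.50 against -0.03 for all genes. Tk1 showed the largest difference (1.93-fold lower, log2 difference -0.90 ± 0.08 SE, limma adjusted p = 4.6e-05), and Gins3 and Rfc3 were not called. The 6 h of vehicle culture, the shallower depth and any difference between the 2 sets of libraries cannot be told apart. Markers of other blood cells moved too: after DMSO against WT, 6 of 9 mast cell and basophil markers were higher and 1 lower (summed FPKM 177 to 185 in WT, 347 to 362 after DMSO), 3 of 11 megakaryocyte higher and 1 lower (289 to 315, 361 to 420), 4 of 16 monocyte and macrophage higher and 4 lower (1228 to 1278, 1173 to 1417), and 4 of 10 late neutrophil higher and 3 lower (1495 to 1511, 1568 to 1855). Erythroid markers had 2 higher and 2 lower of 7 (104 to 111, 88.1 to 89.9), B lymphoid 1 and 1 of 3 (15.7 to 18.9, 16.6 to 17.8), dendritic cell and MHC class II 1 and 1 of 6 (141 to 156, 134 to 177), stromal and endothelial 1 and 1 of 2 (46.7 to 50.7, 53.2 to 62.0), and T and NK cell 0 and 2 of 2 (69.9 to 70.2, 42.2 to 49.5). Tfrc made up most of the erythroid sum (mean 87.7 FPKM in WT, 61.2 after DMSO). Nkg7 made up most of the T and NK cell sum (67.3, 42.2), and Pecam1 of the stromal and endothelial sum (45.9, 55.8). Gzmb (38.1, 161) was the largest part of the mast cell and basophil sum after DMSO. The part of these shifts in the result was not tested.

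Further genes of the same pathways were counted from lists made by function. Of all genes tested, 18% were higher and 22.9% lower in dKO, and 23.6% were higher and 25.5% lower after PGE1. Of 30 other nucleotide synthesis genes, 16 were higher in dKO and 1 (Samhd1, which degrades deoxynucleotides) was lower, whereas after PGE1 21 were lower and 3 (Ctps2, Dguok, Tk2) were higher. Gart, Atic and Pfas, enzymes of purine synthesis, stood at 47.0 ± 1.21, 51.3 ± 0.487 and 14.1 ± 0.481 FPKM after DMSO and 15.5 ± 2.20, 22.8 ± 2.58 and 6.95 ± 0.706 after PGE1 (SD, n = 3). The median of the list after PGE1 was -0.73. Of 32 other replication initiation and fork genes, 10 were higher and 3 (Cdc7, Timeless, Wdhd1) lower in dKO. After PGE1, 1 (Pold4) was higher and 6 were lower, among them Dna2 (-0.79) and Orc2 (-0.69). The share of these fork genes called lower after PGE1 was below that of all genes. Of 12 tested chromatin replication genes, 8 were higher in dKO and 0 lower (also 0 at an unadjusted p below 0.05), and 1 (Asf1b) was higher and 5 lower after PGE1, including Hells (-0.68) and Uhrf1 (-0.87).

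Cell cycle control genes were mixed. Of all genes tested, 23.6% were higher and 25.5% lower after PGE1, 18% and 22.9% in dKO, and 0.996% and 4.57% after PGE2. The shares of the E2F and G1/S genes called higher after PGE1 and lower in dKO were below those of all genes. Of 28 E2F and G1/S genes, 14 were lower and 6 higher after PGE1: the G1 cyclins Ccnd1 and Ccne1 differed by -2.19 and -1.36, the phosphatase Cdc25a by -0.92, and the inhibitor Cdkn1b by 1.12. In dKO 9 were higher, including Ccne1 (0.33), and 5 lower, including Ccnd1 (-0.94) and the inhibitors Cdkn1c (-1.19) and Cdkn1b (-0.63). Of 16 mitosis genes, 7 were higher and 0 lower after PGE1 (at an unadjusted p below 0.05, 8 and 0), among them Cenpa (1.28), Cdc20 (0.69) and Ccnb2 (0.44), and in dKO 7 were higher and 1 (Kif23) lower. After PGE2, the lists of other nucleotide synthesis and mitosis genes had 0 calls with limma (10 higher and 1 lower, and 5 higher and 0 lower, at an unadjusted p below 0.05). Timeless (0.31) of the fork genes, Cdc25a (0.36) of the E2F genes, and Hells, Ssrp1 and Chaf1a of the chromatin genes were higher.

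Markers of other blood cells moved in the same comparisons. The shares of all genes called, given above for each comparison, stand beside these counts too. In dKO, 15 of 16 tested monocyte and macrophage markers were lower (summed FPKM 1228 to 1278 in WT, 455 to 545 in dKO), as were 11 of 11 megakaryocyte (289 to 315, 75.1 to 140), 6 of 8 mast cell and basophil (177 to 185, 89.0 to 101) and 4 of 5 dendritic cell and MHC class II markers (141 to 156, 61.1 to 89.9). Late neutrophil markers had 7 lower and 1 higher of 9 (1495 to 1511, 1343 to 1931), erythroid 3 lower and 1 higher of 7 (104 to 111, 141 to 145), B lymphoid 1 lower and 3 higher of 6 (15.7 to 18.9, 13.5 to 22.7), T and NK cell 1 higher of 2 (69.9 to 70.2, 87.3 to 92.2) and stromal and endothelial 1 lower of 2 (46.7 to 50.7, 40.2 to 48.9). Tfrc made up most of the erythroid sum (mean 87.7 FPKM in WT, 132 in dKO) and was its 1 higher gene. Nkg7 made up most of the T and NK cell sum (67.3, 87.3), and Pecam1 of the stromal and endothelial sum (45.9, 43.8). S100a8 (608, 853) was the 1 higher late neutrophil marker and the largest part of that sum. Ms4a1, Cd3d, Cd3e, Cd3g, Cd8a, Ncr1, Col3a1 and Cxcl12 were listed at 0 in dKO. In WT they were already near 0, with means of 0.0054 (Cxcl12) to 0.129 FPKM (Cd3g).

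After PGE1 the counts were 9 lower and 3 higher of 17 monocyte and macrophage markers (1173 to 1417 after DMSO, 1134 to 1445 after PGE1), 6 lower of 10 late neutrophil (1568 to 1855, 1037 to 1602), 2 lower and 5 higher of 9 mast cell and basophil (347 to 362, 339 to 451), 2 lower and 4 higher of 11 megakaryocyte (361 to 420, 425 to 565), and 3 lower and 3 higher of 7 erythroid markers (88.1 to 89.9, 35.7 to 52.1). B lymphoid markers had 1 lower of 2 (16.6 to 17.8, 15.0 to 16.7), T and NK cell 1 lower of 2 (42.2 to 49.5, 10.3 to 19.7), dendritic cell and MHC class II 1 lower and 1 higher of 6 (134 to 177, 133 to 174), and stromal and endothelial 1 lower and 2 higher of 3 (53.2 to 62.0, 43.8 to 45.8). After PGE2, 4 of 17 monocyte and macrophage (1542 to 1598) and 1 of 10 late neutrophil markers (2122 to 2138) were higher, and 1 of 9 mast cell and basophil (Gzmb; 252 to 253), 1 of 2 B lymphoid (Il7r; 14.7 to 16.2) and 1 of 3 stromal and endothelial markers (Pecam1; 38.8 to 40.8) were lower. The other marker lists had no call with limma after PGE2; at an unadjusted p below 0.05, megakaryocyte markers had 5 higher and 1 lower, erythroid 2 lower, and dendritic cell and MHC class II 1 higher. Tfrc, Nkg7 and Pecam1 were again the largest part of the erythroid, T and NK cell, and stromal and endothelial sums. Their means after PGE1 were 23.2, 10.4 and 39.3 FPKM. Cd14, 1 of the 3 higher monocyte and macrophage markers, weighed on that sum, with means of 46.6 FPKM after DMSO and 297 after PGE1. Ctss, 1 of the 9 lower ones, had means of 137 and 75.5. The part of these marker shifts in the replication gene differences was not tested.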

How the data were processed

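RNA from sorted mouse LSCs was sequenced in 14 libraries. The authors deposited FPKM values in 1 file per library; the submitters' processing notes name CASAVA 1.8, TopHat, Cufflinks and the mouse build mm9. Their roles, the annotation, strand handling and the treatment of reads shared between near-identical genes: none is given in the sources used here. Values at low levels still stepped by whole reads: in 99.99% of 13258 genes with reads in all libraries, every FPKM was a whole number of reads of a whole gene length (within 0.01 of a read), which gave library totals of 31.3 to 33.8 M (untreated) and 19.0 to 22.7 M (treated) and the reads quoted per gene. No count test was run, since FPKM was the unit planned for. Counting errors cover counting only.

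Groups were taken from the titles. Two-sided tests were made with limma 3.58.1 (R 4.3.3), using lmFit and then eBayes with a trend, on log2(FPKM + 1), which understates differences of low genes. Genes entered a fit if they averaged 1 FPKM or more in it. P-values were adjusted by Benjamini-Hochberg over all genes tested, with a threshold of 0.05. WT with dKO, the 8 treated libraries, WT with DMSO, and all 14 libraries (difference of effects) were separate fits; PGE2 has 2 libraries and shares the spread of the treated fit. Folds are ratios of mean FPKM. The scripts were tested on simulated data. Other steps and figures used Python 3.11.15 (pandas 2.3.3, scipy 1.17.1) and matplotlib 3.10.9. The genes and lists were chosen with earlier results of these data known. Genes described with values were, per comparison and role, up to 4 called genes with the smallest p, those that ran against their role and those beside the threshold; from other lists, up to 4 called genes with the smallest p and those that ran against the list.

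Among well-covered genes, the variance between replicates over that of counting was 1.98 to 2.97 in WT, 4.65 to 10.2 in dKO and 1.71 after PGE2. It was 12.2 and 14.5 for pairs with DMSO replicate 1 (1.67 for the other pair) and 28.65 and 31.6 for pairs with PGE1 replicate 2 (6.48 for the other pair). Whether replicate numbers pair the libraries is not known. Alternatives were another scaling, pseudocount and minimum level, a replicate block, 1 fit over all libraries and leaving out each library; leaving out the libraries with a contradicting genotype field and using the WT mean as 1 sample were added after seeing the data. Protein sequences and mm9 coordinates were not used here.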

Additional observations from a re-analysis of the deposited data

How the results depend on the processing

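For dKO against WT, 22 genes were higher and 0 lower. Quantile normalization gave 14 and 1, and median-of-ratios scaling called 27, among them all 22. With 1 fit over all libraries 14 were higher, and leaving out 1 library gave 13 to 22 higher and 0 to 1 lower. Leaving out the library with a contradicting genotype field gave 1 lower, and the WT mean as 1 sample, which assumes the lone sample varies like dKO, gave 3 higher (Pold2, Fen1 and Rrm2) and 768 calls over all genes (4381 as reported; 2543 against 6296 for DMSO against WT). For PGE1 against DMSO, 4 higher became 2 to 4 without 1 library. For PGE2 against DMSO, 2 higher became 4 with median-of-ratios scaling, 1 with a pseudocount of 0.1, 1 with no minimum level, 12 in 1 fit over all libraries and 0 to 9 without 1 library, and 626 calls over all genes became 1207 in 1 fit and 125 to 1218 without 1 library. For PGE1 against PGE2, 3 higher became 1 with median-of-ratios scaling, 5 in 1 fit and 0 to 3 without 1 library. The difference of effects for Mcm5 was -0.17 and turned to 0.0165 after quantile normalization (adjusted p = 0.869, limma); the median over the 41 genes moved from -0.28 to -0.39 with median-of-ratios scaling. The share of calls over all genes that were higher in that comparison was 54.2% as reported and 43.6% with median-of-ratios scaling. The causes were not tested. In the treated cells same-numbered libraries deviated with correlations of -0.16, -0.27 and 0.26 (DMSO and PGE1). In the untreated cells these were 0.04, 0.12 and 0.01. Different-numbered libraries gave -0.39 to 0.43 (DMSO and PGE1) and -0.07 to 0.04 (untreated). So few libraries cannot decide whether the numbers pair the samples, and pairing is not known. With the replicate block 18 genes were higher in dKO, 14 lower and 4 higher after PGE1, 0 higher after PGE2 (269 calls over all genes), and 1 higher after PGE1 than PGE2. Fewest reads in a library were those of Orc1 (149), Gins1 (152) and Pole2 (170).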

Other observations

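Transcripts of proteins that act in equal numbers in 1 complex were at unequal levels per length. In WT the Mcm ring subunits stood at 117 ± 2.29 (Mcm6), 109 ± 4.63 (Mcm3), 86.6 ± 2.39 (Mcm5), 85.2 ± 0.566 (Mcm2), 56.8 ± 1.07 (Mcm7) and 49.3 ± 0.872 FPKM (Mcm4), SD over 3 libraries. Only Mcm5 and Mcm2 overlapped between libraries among neighbours in this order, and the highest Mcm3 value (114 FPKM) lay just under the lowest Mcm6 value (115 FPKM). Among the GINS genes Gins3 stood at 5.47 ± 0.355 FPKM, against 24.0 ± 1.02 for Gins1, 28.1 ± 0.444 for Gins2 and 26.1 ± 0.328 for Gins4. Among the clamp loader genes Rfc2 stood at 65.4 ± 1.12 FPKM, against 17.4 ± 0.791 (Rfc3) to 26.9 ± 0.377 (Rfc5) for the other subunits. These levels rest on gene lengths from an annotation that was not named, and its part in the differences was not tested.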
